A study of Mus musculus with 11 samples.

Results

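The circadian clock genes Per1, Per2, Per3, Cry1, Cry2, Arntl, Clock, Nr1d1, Nr1d2 and Dbp were followed by name in the RNA of the gingival epithelium, the lining of the gum, and all 10 had values among the 19170 genes measured. RNA-seq libraries came from 11 Langerin-DTR mice, which carry the receptor for diphtheria toxin under the langerin promoter, so that the toxin kills cells that make langerin, chiefly Langerhans cells. Diphtheria toxin (DT, 6 mice) or phosphate-buffered saline (PBS, 5 mice) was injected around weaning, from the third week of life, and the epithelium was taken in the eighth week. All 11 mice carried the transgene. The study's methods describe males, whereas its reporting summary refers to both sexes in matched groups, so the sex of these mice is not certain. The hour at which each mouse was killed is not given in the sources used here, so for these rhythmic genes collection time and group cannot be told apart. The S numbers in the sample titles of the PBS and DT mice also form separate runs. The titles do not say what these numbers stand for, and their order cannot be told apart from the treatment.

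The mammalian clock is a loop of transcription. CLOCK pairs with BMAL1, the product of Arntl, and the pair binds E-boxes to switch on the Period, Cryptochrome, Nr1d1, Nr1d2 and Dbp genes. PER and CRY proteins then enter the nucleus and block CLOCK and BMAL1, while REV-ERB alpha and beta, made from Nr1d1 and Nr1d2, repress Arntl. DBP acts on D-boxes, and in most peripheral tissues the RNA of Arntl runs opposite in phase to that of Nr1d1, Dbp and the Period genes. Per1 can in addition be induced within a short time by glucocorticoid hormones and by signals that act through immediate early pathways.

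Reference promoters, the 250 bases before a RefSeq start site (GRCm38.p6), were found for 9 of the 10 genes, with 13 start sites among them, and no entry was matched for Per2. The E-box CACGTG occurred in 2 of the 13, at Cry1 and Per1, against 6.02% of 32851 promoters of this length. The D-box TTATGTAA occurred in 1 of the 13, that of Per3, which held 2 copies, against 0.819% of all promoters. The elements TAGGTCA, bound by REV-ERB and ROR proteins, and TGACGTCA, the cyclic AMP response element, had no match in the 13 windows and occurred in 2.23% and 1.55% of all promoters. Both strands were searched, and a match describes letters only. The 3 promoters with a match are shown because they carry the elements through which these members are known to be driven, with the elements in capitals. They lie at chr10:85185055-85185304 (Cry1, minus strand), chr11:69098699-69098948 (Per1, plus strand) and chr4:151044666-151044915 (Per3, minus strand).
Cry1: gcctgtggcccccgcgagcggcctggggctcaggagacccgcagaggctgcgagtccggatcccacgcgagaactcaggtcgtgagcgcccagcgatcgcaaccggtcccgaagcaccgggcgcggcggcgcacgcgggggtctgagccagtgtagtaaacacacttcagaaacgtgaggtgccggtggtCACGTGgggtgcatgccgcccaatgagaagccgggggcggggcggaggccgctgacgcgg
Per1: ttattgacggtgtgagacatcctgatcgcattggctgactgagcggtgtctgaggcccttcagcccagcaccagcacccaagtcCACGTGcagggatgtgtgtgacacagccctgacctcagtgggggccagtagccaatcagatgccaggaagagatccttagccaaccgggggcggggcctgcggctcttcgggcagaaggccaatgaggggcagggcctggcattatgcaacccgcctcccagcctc
Per3: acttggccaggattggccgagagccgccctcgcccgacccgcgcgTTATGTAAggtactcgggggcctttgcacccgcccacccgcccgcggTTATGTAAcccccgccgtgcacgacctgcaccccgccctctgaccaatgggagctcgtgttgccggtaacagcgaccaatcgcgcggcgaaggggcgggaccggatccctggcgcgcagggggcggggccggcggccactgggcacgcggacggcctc
The E-box began 60 bases before the start site in Cry1 and 166 bases before it in Per1.

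Deposited values were normalized counts, reads per gene divided by a size factor of the library, and the steps between low values gave an estimate of 17509328 to 24325514 reads a library. Keratinocyte markers dominated the tissue, with a summed level of 2914430 to 3050720 in PBS and 3014150 to 3298780 in DT mice, led by Krt13. The other marker lists were much lower, and no gene of the 6 marker lists passed the test between the groups. Fibroblast markers summed to 1252 to 1450 in PBS and 1109 to 1594 in DT mice (highest gene Dcn, with Lum at 0 in some mice), and leukocyte markers to 292 to 449 and 248.8 to 424 (highest gene Itgam). Endothelial markers reached 103 in PBS and 118 in DT mice (highest gene Pecam1, with Kdr and Emcn at 0 in some mice), and skeletal muscle markers 61.9 and 42.9 (highest gene Mb, with Ckm, Myh4 and Tnnt3 at 0 in some mice). Cd207, which encodes langerin, lay at 10.0 to 43.0 in PBS and 15.8 to 21.6 in DT mice, a log2 difference of -0.19 (adjusted p = 0.853, limma). By flow cytometry, the paper reports that Langerhans cells were lost after the toxin and had regained their usual frequencies by the eighth week. At an unadjusted p under 0.05 (limma) there were 5 marker genes, each lower in DT mice, beside 11.5% of all genes. Of 6 leukocyte genes they were Ptprc (-0.62) and Csf1r (-0.46), and of 6 in the Langerhans list Cd74 (-0.50) and Mfge8 (-0.35). Of 6 fibroblast genes it was Col1a1 (-0.53). The keratinocyte (10 genes), endothelial (5) and skeletal muscle (5) lists had none. PBS 3 and PBS 5 had the highest levels of Cd74 (2251 and 1674), H2-Aa (753 and 597) and Cd207 (32.2 and 43.0) of all mice, and without them Cd74 was at -0.10 (adjusted p = 0.804, limma). The part of these cells in the clock values was not tested. The Langerhans list, led by Cd74, summed to 2292 to 4722 in PBS and 1784 to 2985 in DT mice. In such bulk tissue, fewer cells of a type and less RNA per cell cannot be told apart. Along the first principal component of the most variable genes, PBS 3 and PBS 5 (17.2 and 20.9) stood apart from the other PBS mice (-13.0 to -11.9). The DT mice lay from -9.09 to 10.5.

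Clock RNAs were present in every mouse, and per kilobase of exon their order ran from Nr1d1 to Per2. The mean level was 822 normalized counts per kilobase for Nr1d1, 501 for Clock, 279 for Per1, 169 for Nr1d2, 118 for Arntl, 110 for Cry2, 106 for Cry1, 64.7 for Dbp, 39.5 for Per3 and 19.5 for Per2. Neighbours in this order overlapped across the 11 mice except Per3 and Per2. Exon lengths came from a GRCm38 annotation, and the deposited counts may have used another build. The labels describe a stranded poly(A) library, whereas the study's methods follow the guide of QuantSeq, a protocol that reads the 3′ ends of transcripts, in which counts do not grow with length. Not divided by length, Clock (6851 in PBS and 6899 in DT mice) ranked above Nr1d1 (2239 and 2773), so the order depends on which applies. In that annotation (GRCm38) Nr1d1 lies at chr11:98767932-98775333 on the minus strand and Per1 at chr11:69095217-69109960 on the plus strand. Nr1d2 lies at chr14:18204054-18239127, Per3 at chr4:151003652-151044665 and Cry1 at chr10:85131700-85185064, each on the minus strand. The strand setting of the counting is not given in the sources used here, so reads shared with overlapping genes cannot be assigned with certainty. Thra overlaps Nr1d1 by 1075 bases on the opposite strand (log2 difference -0.21, adjusted p = 0.174), Sphk2 overlaps Dbp by 737 bases on the opposite strand (-0.04, adjusted p = 0.785), and Camta1 spans Per3 on the same strand (-0.15, adjusted p = 0.361; limma).

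Between DT and PBS mice, none of the 10 clock genes passed an adjusted p of 0.1 (limma on log2(normalized count + 1), Benjamini-Hochberg over 19170 genes), where 0.558% of all genes did. At an unadjusted p under 0.05 there were 4, with Nr1d1 and Nr1d2 higher and Per3 and Cry1 lower in DT mice, beside 11.5% of all genes. No member separated the groups completely, as 1.65% of all genes did. The fold changes were positive for 5 and negative for 5 members, with a median of -0.02 on the log2 scale against -0.01 over all genes. Fold changes here are on the log2(normalized count + 1) scale, which understates the change of low genes.

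**Figure D1:**
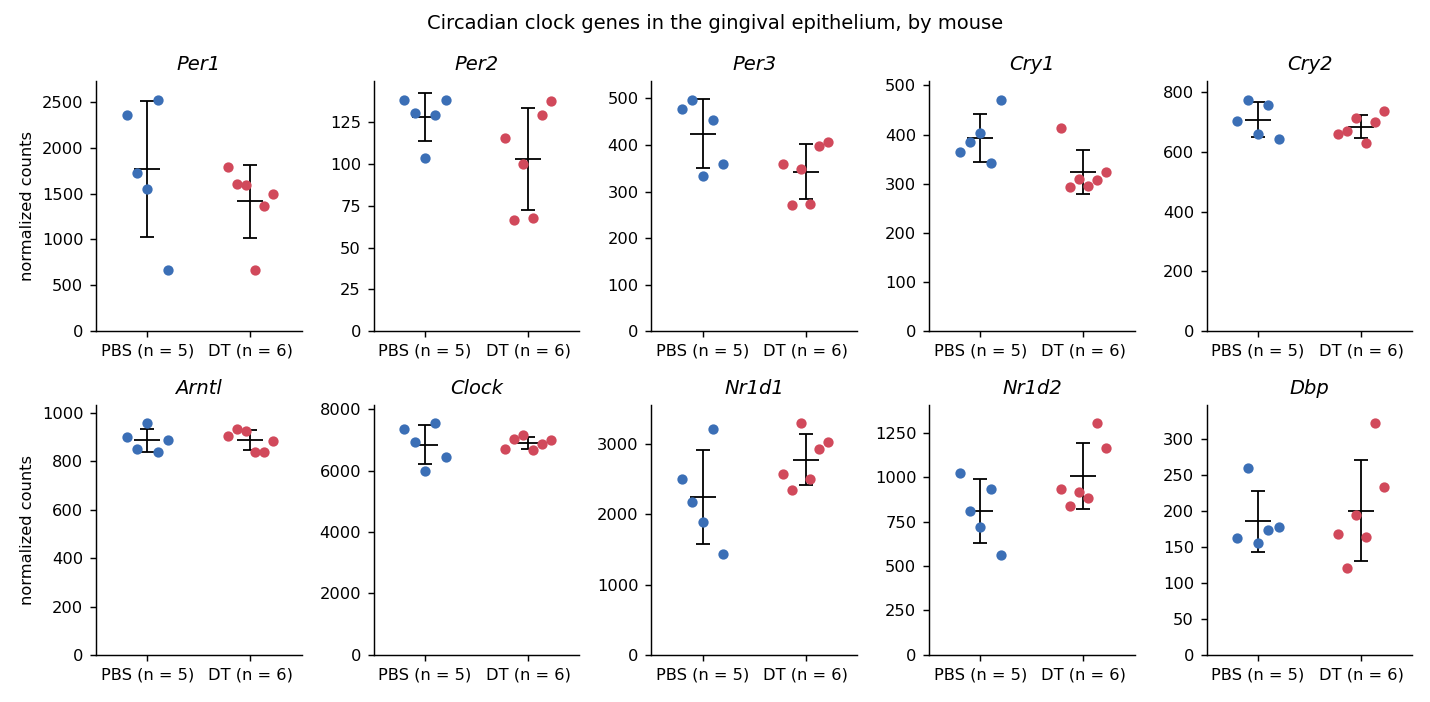
Normalized counts (y axis, from 0) of the 10 clock genes in each mouse, 5 PBS (blue) and 6 DT (red). Bars show the mean and SD. The groups overlap for every gene, and Per1 shows the widest range, from 662 to 2524.

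Arntl was the steadiest member, with the lowest ratio of highest to lowest mouse. Arntl lay at 900, 852, 958, 839 and 889 in PBS 1 to PBS 5 and at 839 to 934 in DT mice, with a median of 894. Its mean was 887 ± 46.6 (SD, n = 5) in PBS and 888 ± 41.0 (SD, n = 6) in DT mice, and the 95% interval of the log2 difference ran from -0.11 to 0.11. That ratio was 1.14 for Arntl, 1.23 for Cry2 and 1.26 for Clock. Clock, the partner of BMAL1, lay at 7361, 6932, 5983, 7544 and 6435 in PBS mice and at 6666 to 7151 in DT mice, with a median of 6925. Its log2 difference was 0.01 (SE 0.059, adjusted p = 0.953), and the DT mice all lay within the range of the PBS mice.

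The Period genes, which encode the repressors that define the negative arm, had lower means in DT mice. Per3 lay at 478, 498, 334, 454 and 359 in PBS mice and at 271 to 406 in DT mice, with a median of 354. All 6 DT mice lay below the PBS mean, but PBS 3 and PBS 5 lay within the DT range. The log2 difference was -0.31 (SE 0.13, p = 0.0287, adjusted p = 0.362, limma), and an exact permutation of the group labels (two-sided) gave permutation p = 0.0801. Per2 lay at 138, 130, 104, 129 and 138 in PBS mice and at 66.7 to 137 in DT mice, with a median of 108. DT 2 and DT 4 were the lowest mice for Per2, at 66.7 and 67.6, and the log2 difference was -0.36 (SE 0.18, adjusted p = 0.462). Per1 lay at 2360, 1721, 1552, 2524 and 663 in PBS mice and at 662 to 1785 in DT mice, with a median of 1542. A single mouse of each group, PBS 5 and DT 4, carried far less Per1 than its group. The log2 difference of Per1 was -0.24 (SE 0.30, adjusted p = 0.807), and it ranged from -0.56 without PBS 5 to -0.04 without DT 4.

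The Cryptochromes, partners of the PER proteins, both had lower means in DT mice. Cry1 lay at 364, 384, 402, 341 and 471 in PBS mice and at 294 to 413 in DT mice, with a median of 309. Of the 6 DT mice, 5 lay below every PBS mouse and DT 1 lay among them. The log2 difference of Cry1 was -0.28 (SE 0.097, p = 0.0114, adjusted p = 0.280, limma; exact permutation p = 0.0368), and the unadjusted limma p was under 0.05 in 11 of the 11 fits that left out 1 mouse. That count was 6 for Per3, 5 for Nr1d1 and 7 for Nr1d2. Cry2 lay at 704, 775, 658, 757 and 644 in PBS mice and at 628 to 737 in DT mice, with a median of 684, and its log2 difference was -0.05 (95% interval -0.18 to 0.09). The difference between the changes of the paralogs was not tested. The ratio of Cry2 to Cry1 overlapped between the groups, at 1.37 to 2.22 in PBS and 1.60 to 2.30 in DT mice.

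The REV-ERB genes, the repressors of Arntl, had higher means in DT mice. Nr1d1 lay at 2494, 2175, 1890, 3203 and 1434 in PBS mice and at 2339 to 3290 in DT mice, with a median of 2746. Its log2 difference was 0.35 (SE 0.15, p = 0.0351, adjusted p = 0.387, limma; exact permutation p = 0.106), and 0.20 without PBS 5 (limma p = 0.114 unadjusted). Nr1d2 lay at 1022, 809, 719, 934 and 560 in PBS mice and at 837 to 1304 in DT mice, with a median of 925. Its log2 difference was 0.33 (SE 0.14, p = 0.0338, adjusted p = 0.381, limma; exact permutation p = 0.102), and likewise 0.20 without PBS 5 (limma p = 0.110 unadjusted). For each of them all 6 DT mice exceeded the PBS mean, 3 PBS mice lay below every DT mouse, and PBS 1 and PBS 4 lay among the DT mice. Dbp, an output gene driven directly by CLOCK and BMAL1, lay at 162, 259, 155, 173 and 178 in PBS mice and at 121 to 322 in DT mice, with a median of 181. Its log2 difference was 0.07 (95% interval -0.35 to 0.49), so that with these mice a change of either sign within this interval cannot be told from none.

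The differences varied with PBS 3 and PBS 5, which stood apart from the other PBS mice along the first principal component of the most variable genes. With both left out, a setting chosen after the data were seen, the log2 difference was -0.68 for Per1 (adjusted p = 0.0916) and -0.49 for Per3 (adjusted p = 0.0284), and these 2 genes passed the test (limma). In the same fit 10.3% of all genes passed. The differences of Nr1d1 and Nr1d2 were there 0.09 and 0.11 (adjusted p = 0.710 and 0.631), and that of Cry1 was -0.17 (adjusted p = 0.324). Col1a1 and Col1a2, collagen genes of the fibroblast list, also passed there as lower in DT mice (-0.86 and -0.84), whereas Dcn, the most abundant gene of that list, was at 0.10 (adjusted p = 0.585, limma) and Pdgfra at 0.25 (adjusted p = 0.805, limma). The part of fibroblast RNA in the clock values was not tested.

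**Figure D2:**
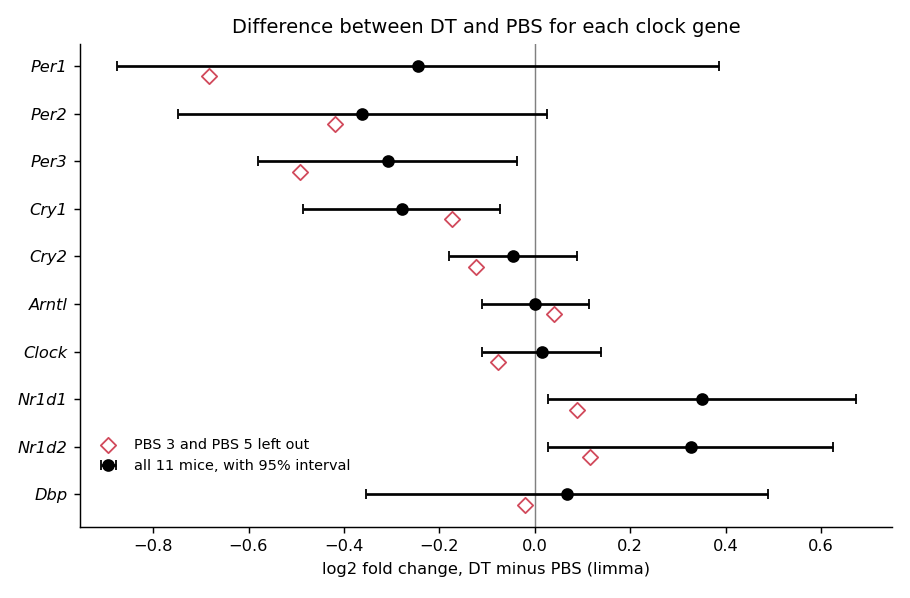
Log2 fold change (x axis, DT minus PBS) of each clock gene from all 11 mice, with its 95% interval (black), and without PBS 3 and PBS 5 (open diamonds). Without these mice Per1 moves from -0.24 to -0.68, while Nr1d1 moves from 0.35 to 0.09.

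Set against each other within a mouse, REV-ERB and Period RNAs separated the groups where neither did alone. The ratio of Nr1d2 to Per3 was 2.14, 1.63, 2.15, 2.06 and 1.56 in PBS mice and 2.59 to 3.28 in DT mice, with a median of 2.97. Every DT mouse lay above every PBS mouse, and the mean log2 ratio was 0.64 higher in DT mice (SD 0.23 in PBS, n = 5, and 0.15 in DT, n = 6). The ratio of Nr1d2 to Per2 was 4.05 to 7.40 in PBS and 8.05 to 13.1 in DT mice, and that of Nr1d1 to Per3 was 4.00 to 7.05 in PBS and 7.14 to 9.47 in DT mice. The ratios were formed after the values above were seen and are given as a description, with no test. Of all 45 pairs of clock genes, these 3 had ratios that did not overlap between the groups, beside 2.27% of pairs drawn from the 10019 genes whose mean reached 100. The other 3 of the 6 pairs of a REV-ERB and a Period gene overlapped. PBS 3 and PBS 5, which had the low Nr1d1 and Nr1d2 values, lay with the other PBS mice in the ratio of Nr1d2 to Per3, at 2.15 and 1.56.

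**Figure D3:**
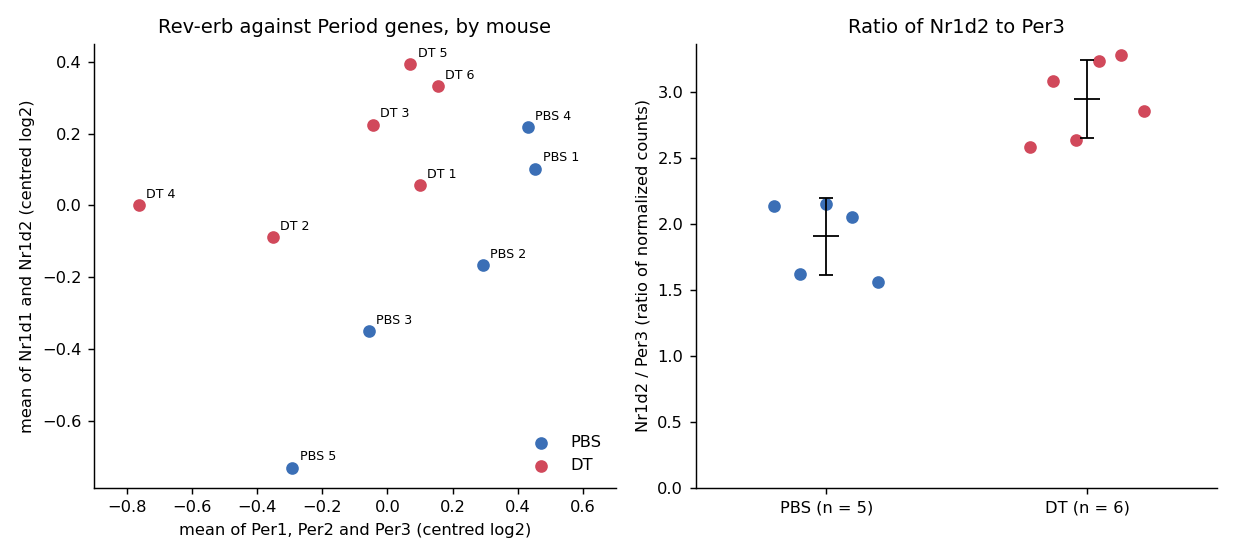
Left, mean centred log2 level of Nr1d1 and Nr1d2 (y axis) against that of Per1, Per2 and Per3 (x axis), 1 point a mouse. Right, ratio of Nr1d2 to Per3 normalized counts by group with mean and SD, from 1.56 to 2.15 in PBS (blue) and from 2.59 to 3.28 in DT mice (red).

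Mice of the same group differed widely in some clock genes and hardly in others. The SD of log2 values within groups was 0.64 for Per1, above that of 99.4% of 10019 genes whose mean reached 100. The median SD of these genes was 0.12. Dbp stood at 98.2%, Per2 at 97.3%, Nr1d1 at 96.5%, Nr1d2 at 95.5%, Per3 at 93.1% and Cry1 at 79.8% on the same scale. Cry2, Clock and Arntl stood at 34.5%, 32.0% and 12.1%, so that the members ordered themselves with the Period, REV-ERB and Dbp genes at one end and Arntl and its partner at the other. This ranking, made after the values were seen, is a description over genes of unequal level. Counting error, estimated from the same reads, was smaller than this spread for the variable genes. For Per1 the coefficient of variation over all mice was 36.5%, against 2.50% from read counting, whereas for Arntl the values were 4.66% and 3.34%.

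Arntl showed no correlation with another member that passed the test across mice. After group means were removed, the strongest was that with Dbp (Pearson r = -0.58, permutation p = 0.0684, adjusted p = 0.489 over 9 genes; Spearman rho = -0.60, permutation p = 0.0747, adjusted p = 0.360). Without PBS 3 and DT 5, the mice farthest from the median of Arntl, the r with Dbp was -0.36. Over the 9 members the r of Arntl was negative for 7 and positive for Per1 and Cry1, and none passed in either measure. A clock index, the mean centred log2 level of the Period, REV-ERB and Dbp genes minus that of Arntl and Clock, was 0.02 ± 0.26 (SD, n = 5) in PBS and -0.02 ± 0.29 (SD, n = 6) in DT mice. Its parts went opposite ways and cancelled, the Period mean being 0.17 in PBS and -0.14 in DT mice and the REV-ERB mean -0.18 and 0.15.

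Among all 45 pairs, 31 correlations were positive and 14 negative, and none passed after adjustment in group-centred values. The smallest p was that of Per2 and Per3 (Pearson r = 0.82, permutation p = 0.0026, adjusted p = 0.118; Spearman rho = 0.75, permutation p = 0.0101, adjusted p = 0.122). Without DT 2 and DT 4 the r of Per2 and Per3 was 0.62. With group means left in, 2 pairs passed, Per2 with Per3 (r = 0.87, permutation adjusted p = 0.0211) and Nr1d1 with Nr1d2 (r = 0.84, permutation adjusted p = 0.0328). Both are pairs of paralogs. No pair with Cry1 passed. Its lowest r was that with Nr1d1 (-0.59, permutation adjusted p = 0.179; Spearman rho = -0.36, permutation adjusted p = 0.473), which was -0.98 in PBS and -0.04 in DT mice, and -0.16 without PBS 4 and PBS 5. The r of Cry1 with Per3 and Dbp was -0.06 and -0.007.

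**Figure D4:**
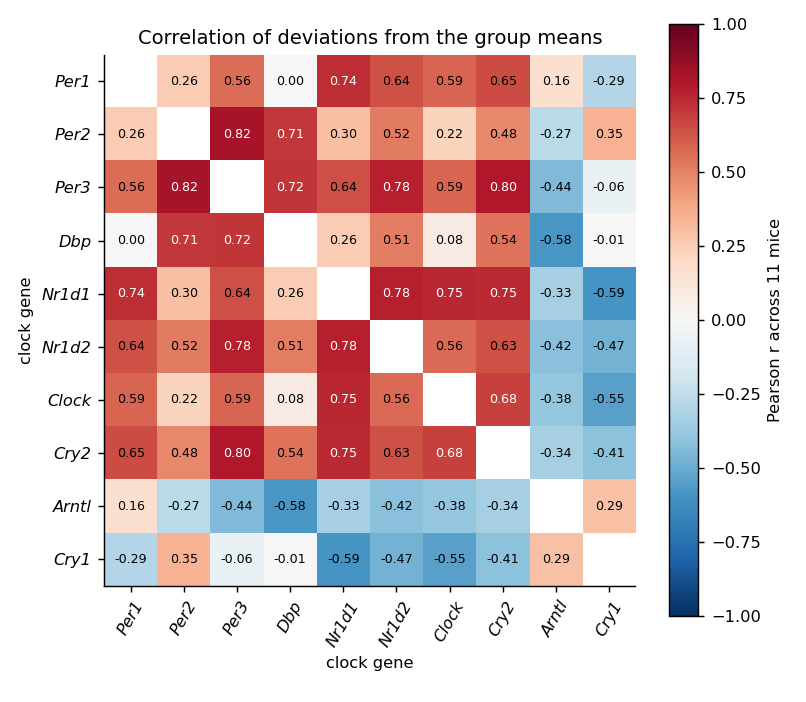
Pearson r between clock genes across 11 mice, on deviations of log2 values from the group means (blue negative, red positive). The pair of Per2 and Per3 is highest at 0.82, and the lowest r, -0.59, is that of Cry1 with Nr1d1.

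Outside the clock, the RNA whose deviations ran closest to those of Per1 among 10009 genes was Klf9, a Krüppel-like factor gene known to respond to glucocorticoids (r = 0.97, n = 11 mice). Klf9 lay at 781, 687, 710, 839 and 450 in PBS mice and at 413 to 768 in DT mice, with a median of 690. PBS 5 and DT 4 were its lowest mice, as they were for Per1, and without them the r was 0.83. Cep131, a centriolar satellite gene, and Sgpp1, a sphingosine phosphate phosphatase gene, followed at 0.97 and 0.95, and at 0.89 and 0.60 without these mice. Tsc22d3, another glucocorticoid-responsive gene, looked at after its values were seen, had an r of 0.87 with Per1, and of 0.60 without PBS 5 and DT 4. The glucocorticoid-responsive list as a whole did not follow Per1. Of its 10 genes 4 had a positive r, the median was -0.23, and the values ran from -0.75 for the metallothionein gene Mt2 to that of Klf9. Zbtb16 had an r of 0.23 and Fkbp5 of -0.23 with Per1. These genes were picked for likeness out of many, and the points share libraries and scaling, so the r values are descriptions.

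**Figure D5:**
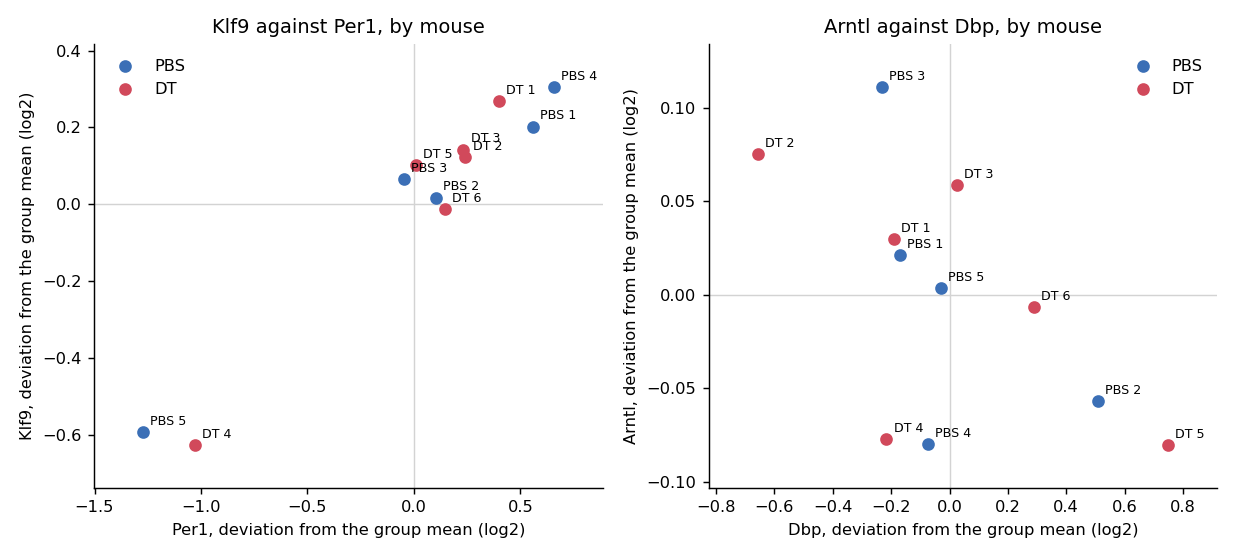
Deviations of log2 values from the group mean in each mouse, Klf9 against Per1 (left) and Arntl against Dbp (right), PBS in blue and DT in red. PBS 5 and DT 4 lie far from the rest for Per1 and Klf9, and the r of Arntl with Dbp is -0.58.

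For Dbp, the likeliest genes were Spry1, a Sprouty inhibitor of receptor tyrosine kinase signalling (r = 0.95), Inpp4b, a phosphoinositide phosphatase gene (r = 0.87), and Mrpl3, a mitochondrial ribosomal protein gene (r = 0.87). Tef, which encodes a D-box factor of the same family as DBP, was looked at after its values were seen, with an r of 0.85, or 0.61 without DT 2 and DT 5. This likeness was not particular to Dbp, as Tef had an r of 0.89 with Per2 and 0.88 with Per3. Hlf, the other gene of that family, had an r of 0.30 with Dbp, and among the 22 other clock components 11 had a positive r with Dbp, with a median of 0.01. Npas2, a paralog of Clock, was likewise looked at and had an r of -0.70 with Dbp, or -0.20 without these mice. Within groups that r was 0.23 in PBS and -0.92 in DT mice. It was not particular to Dbp either, as Npas2 had an r of -0.83 with Per2, -0.77 with Nr1d2 and -0.76 with Per3. With Arntl the r of Npas2 was 0.49. The genes most like Arntl were Aldoc, a glycolytic aldolase gene (r = 0.88), Pes1, a ribosome biogenesis gene (r = 0.84), and Msto1, a mitochondrial gene (r = 0.84).

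Other genes of the clock were read in the same fit. Of 22 other clock components none passed the test, with a median log2 difference of -0.03, and 2 had an unadjusted p under 0.05 (limma), beside 0.558% and 11.5% of all genes, so that their share did not exceed the background. They are given as values only. Bhlhe41, which encodes the repressor DEC2, lay at 63.7 to 127 in PBS and 19.1 to 82.3 in DT mice (log2 difference -0.83, SE 0.285, adjusted p = 0.272). Timeless lay at 89.2 to 131 in PBS and 71.6 to 107 in DT mice (-0.37, SE 0.13, adjusted p = 0.288). None of the 9 output genes passed the test, or had an unadjusted p under 0.05. The smallest p among them belonged to Klf10 (log2 difference 0.13, adjusted p = 0.436, limma) and Usp2 (0.12, adjusted p = 0.578, limma). The median of the 9 was 0.07. Without PBS 3 and PBS 5, Rora, Arntl2 and Gsk3b passed as lower and Tspo as higher, among the 10.3% of genes that passed there.

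Genes that respond to acute signals, through which Per1 can be induced, were set beside the clock genes. Of 14 immediate early genes 9 rose in DT mice, beside 0.558% of all genes called, with a median log2 difference of 1.35 and values of 1.70 for Fos (adjusted p = 0.00897) and 2.68 for Atf3 (adjusted p = 0.00926; limma). With a replicate block by library number, the number after MINUS or PLUS in the sample titles, 0 immediate early genes passed (limma). In that fit 0 of the glucocorticoid-responsive list and 0 of all genes passed (1404 genes at an unadjusted p under 0.05). A block by the replicate number of the titles gave 8 immediate early genes, 1 glucocorticoid-responsive gene and 35 of all genes (limma). With 1 mouse left out, 7 to 11 immediate early genes passed. Without a block, the other 7 that rose were Jun, Junb, Egr1, Egr2, Ier2, Dusp1 and Rasd1. Of 10 glucocorticoid-responsive genes 1 rose, Zbtb16, at 5.25 to 34.6 in PBS and 29.8 to 131 in DT mice (log2 difference 2.79, adjusted p = 0.00897, limma), and the median of the list was 0.07. Per1 did not pass the test, as above, and Klf9 had a log2 difference of -0.09 (adjusted p = 0.875, limma). After group means were removed, 13 of the 14 immediate early genes had a positive r with Per1 (median 0.47). With Nr1d1 13 were positive (median 0.70), with Nr1d2 13 (0.65), with Per3 13 (0.46) and with Per2 14 (0.35). The count was 12 with Cry2 (0.47), 12 with Clock (0.40) and 12 with Dbp (0.16). With Arntl 1 was positive (-0.33) and with Cry1 2 (-0.31). These r values are descriptions, with no test. The part of these acutely responding genes in the levels of the clock genes was not tested.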

How the data were processed

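RNA-seq of gingival epithelium from 5 PBS and 6 DT Langerin-DTR mice was read from 1 table of the series. Per the labels, libraries were poly(A)-selected with a stranded kit, and the paper's methods also cite the QuantSeq guide. The authors deposited normalized counts, gene counts divided by DESeq2 size factors, and the submitters' processing notes name cutadapt 2.10, TopHat2 2.1.1, HTSeq 2.01, DESeq2 1.36.0 and the GRCm39 build, whereas the paper's methods name GRCm38. Of 55414 genes listed, 36244 had no value. Below 100 reads, all values were whole multiples of a step per mouse (within 0.05 read), from which the depth (17509328 to 24325514 reads) and the counting error were estimated. No authors' comparison was used.

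Values were tested as log2(normalized count + 1) with limma 3.58.1 (R 4.3.3, intensity trend, no covariate), adjusting over 19170 genes by Benjamini-Hochberg and calling genes at 0.1. The code was tested on simulated data. Correlations used deviations from group means, with 100000 permutations within groups (numpy 2.4.6, scipy 1.17.1). Single genes were also given an exact permutation test, two-sided, whose smallest p is 0.00216. The limma p-values set the difference between groups against the spread between mice. Permutation p-values set a value against those from reshuffled mice.

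The text names all 10 clock genes; in each other list, genes past the threshold or else the 2 with the smallest p; the highest marker of each cell type; and the 3 genes most like Per1, Dbp and Arntl with a mean of at least 100. Members and lists were chosen with earlier results of these data known. The alternatives were other pseudocounts, a filter at a mean of 10, trimmed-mean (TMM, unweighted) and quantile scaling, array weights, replicate blocks and leaving out mice.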

Additional observations from a re-analysis of the deposited data

Results flagged for a closer look

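Among 24 genes tested in both groups, 48 groups in all, 6 held a mouse that lay far from the others of its group relative to the range (Dixon's criterion), and chance alone marks about 1 group in 20. For the clock genes, Per2 was low in PBS 3, at 103.6 normalized counts against 129 to 138 in the other PBS mice. Cry1 was high in DT 1, at 412.6 against 294 to 324 in the other DT mice. Dbp was high in PBS 2, at 259.5 against 155 to 178 in the other PBS mice. Outside the clock, PBS 4 was high in Zbtb16 (34.6 against 5.25 to 8.75) and in Atf3 (731.3 against 107 to 170), and DT 3 was low in Klf10 (887.4 against 1037 to 1102).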

How the results depend on the processing

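None of the 10 clock genes passed the test under any alternative fixed at the start, and 2 did, Per1 and Per3, with PBS 3 and PBS 5 both left out. In that setting, added after seeing the data, 1967 genes passed over the whole table, with 3 other clock components and 1 output gene; Clock was -0.077 and Dbp -0.020 on the log2 scale, each turned in sign. Removing the mice that stood apart lowers the spread within PBS by construction. The whole table gave 107 calls, 189 with array weights, and 27 to 259 when 1 mouse was left out, and the clock genes gave 0 in each. Signs turned for members near 0: Arntl was -0.016 and Clock -0.029 with quantile scaling, and Clock -0.0059 with array weights. With 1 mouse left out Arntl ranged from -0.019 to 0.029, Clock from -0.033 to 0.051 and Dbp from -0.082 to 0.20. In these fits glucocorticoid-responsive calls ranged from 1 to 2, with 2 without PBS 4. The exact permutation test put Per3, Nr1d1 and Nr1d2, at -0.31, 0.35 and 0.33, above an unadjusted p of 0.05. As deposited and under both other scalings, the median over all genes lay between -0.01 and 0.004.

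The r of Arntl with Per1 ranged from -0.10 to 0.38 and with Clock from -0.51 to 0.080 when 1 mouse was left out. Without the 2 mice farthest from the median of Arntl, the r was 0.13 with Per2 and 0.068 with Clock.

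Mice that share a replicate number in the titles had correlations of deviations from -0.23 to 0.32, and 1 of 5 PBS mice correlated best with its own number, so the numbers were not taken to pair mice. A replicate block by title number gave 35 calls over the whole table, with 0 clock genes, 8 immediate early genes and 1 glucocorticoid-responsive gene. A block by library number gave 0 calls with limma (1404 genes at an unadjusted p under 0.05). That block gave 0 immediate early and 0 glucocorticoid-responsive genes, and Dbp at -0.082. Under the title block the r of Arntl was -0.31 with Per1 and -0.99 with Dbp. It is given with no p, a decision made after a first version with p-values was seen, in which some of the 9 passed: once group and block are removed, the deviations of same-numbered mice mirror each other and cannot be permuted freely.

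The planned count tests with edgeR and DESeq2 were not run. In PBS 3 and DT 3 the step that stands for 1 read is 1.01, so near 1 that whole reads there cannot be told from rounded values, and the depths and counting errors given rest on the same steps. With 5 and 6 mice, an interval as wide as that of Dbp leaves moderate changes undetected.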
